A study of Swertia japonica with 2 samples.

Results

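Short unigenes that nevertheless stood at high levels were examined in Swertia japonica, a gentian relative used as a bitter herbal medicine. A unigene is a transcript assembled de novo from the reads. The 200 unigenes described here were chosen by 3 values: a length under 500 bases, a mean over both libraries of at least 50 TPM (a transcript level that RSEM scales to length and depth), and at least 50 expected counts summed over both. They were 200 of 81729 unigenes in all (0.245%), and 200 of the 38597 under 500 bases (0.518%). Another 12 unigenes reached the length and TPM values on fewer than 50 counts and were left out. The groups were the aerial tissues and the roots of plants aged 6 months, grown outdoors in a medicinal garden and given no treatment, with 1 poly(A)-selected, strand-specific library each. The labels do not say how many plants entered a library. With 1 library per organ there was no replicate check and no p-value could be computed, so each difference describes these 2 libraries. Intervals cover counting error only.

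All 200 carry a unigene number, by which they are named, but the files pair the numbers with no gene name, function or sequence. The organ labels could for the same reason not be checked against marker genes. As background, plant mRNAs that are short and abundant often encode small proteins such as metallothioneins, lipid transfer proteins, ribosomal proteins and small photosystem subunits. De novo assembly also yields short contigs that are pieces of longer mRNAs, or alternative forms of them. Which of these a given member is cannot be read from the files used here.

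Length and TPM are tied together in such transcripts. For TPM, RSEM divides counts by an effective length, the number of positions at which a fragment of the library's size could start, which shrinks faster than the length itself. The 200 members were 202 to 499 bases long with a median of 333, and their effective lengths in the aerial library ran from 37.1 to 320.0 bases with a median of 155. The effective length was 18.4% of the full length at the lowest and 64.1% at the highest, against a median of 84.5% in the 2538 unigenes of 500 bases or more that met the same TPM and count minimums (called long abundant unigenes below). A single aerial count was therefore worth a median of 3.22 TPM in the 24 members under 250 bases, 1.93 TPM in the 41 of 250 to under 300, 1.22 TPM in the 71 of 300 to under 400 and 0.675 TPM in the 64 of 400 bases or more.

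**Figure D1:**
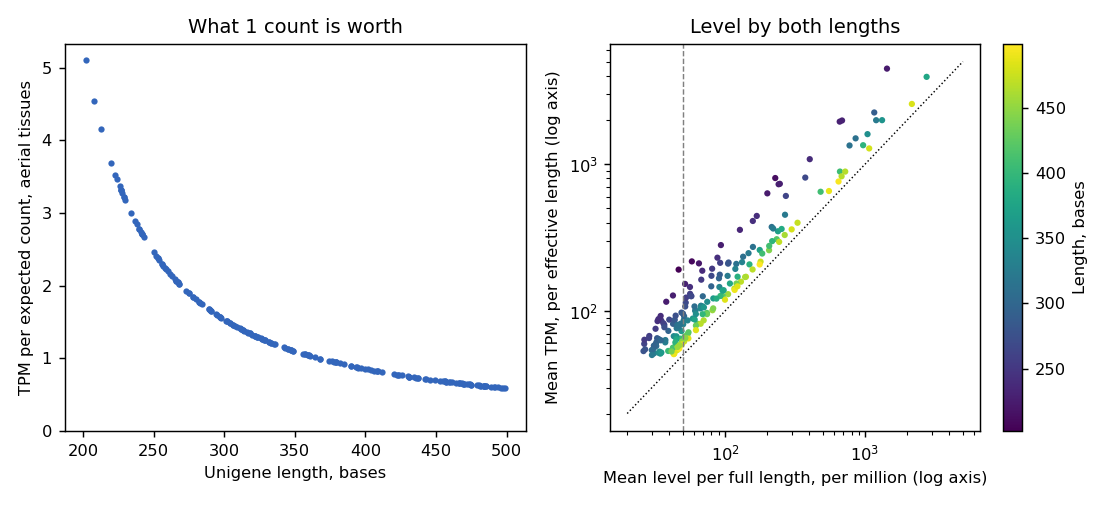
Left, TPM per expected count in aerial tissues against unigene length in bases for the 200 short abundant unigenes. Right, mean TPM by effective length against the mean level by full length on log axes, coloured by length, with a dotted line of equality and a dashed line at 50; 1 count was worth up to 5.10 TPM in the shortest member and every point lies above equality.

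Levels were also computed from counts per full length, scaled to the same sum as TPM. Mean TPM was 1.17 to 4.10 times that level in the members, with a median of 1.61 times, while the median was 0.893 times in the long abundant unigenes. On the full-length scale 130 of the 200 members still reached 50. These included 18 of the 24 under 250 bases and 46 of the 64 of 400 bases or more. Of the TPM, the members held 6.17% in aerial tissues and 6.07% in roots, but of the expected counts 0.875% and 1.14%. On the full-length scale their shares were 3.37% and 3.81%. Among the 100 highest unigenes of each library by TPM stood 14 members in aerial tissues and 18 in roots. By expected count the same lists held 0 members in aerial tissues and 3 in roots.

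The shortest members rest on few counts for their TPM. Unigene38660, of 202 bases, had 33 aerial and 35 root counts, which gave 168 and 214 TPM. Unigene541, of 208 bases, had 31 and 54 counts, or 141 and 294 TPM. Unigene752, of 213 bases, had 180 and 173 counts and stood at 747 and 862 TPM. The first and the last of these had intervals of the organ ratio that included 1, whereas Unigene541 was 2.22-fold higher in roots in CPM, the count scaled to its library total, with a 95% exact interval of 1.40 to 3.57.

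At the edges of the definition the values were close. Just inside the TPM minimum stood Unigene79677 with a mean of 50.1 TPM, Unigene8862 with 50.7 and Unigene57494 with 51.15. Just outside it stood Unigene68879 with 49.0, Unigene17778 with 48.0 and Unigene75737 with 48.0. The longest members were Unigene68893 of 499 bases, at 140 TPM in aerial tissues and 274 TPM in roots, and Unigene71287 of 497 bases, at 39.3 and 71.4 TPM. The shortest unigenes just above the length limit were Unigene43677 of 502 bases, at 93.2 and 107 TPM, and Unigene4911 of 503 bases, at 81.2 and 93.1 TPM.

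Of the members, 90 stood between 50 and 100 TPM and 110 at 100 TPM or more. Mean TPM had a median of 108 and reached 4477, with 26 members at 500 TPM or more and 14 at 1000 or more. In aerial tissues the members ran from 1.06 to 8871 TPM with a median of 94.4, and in roots from 0 to 4858 TPM with a median of 117. A level of at least 50 TPM was met in both organs by 130 members, in aerial tissues alone by 25 and in roots alone by 45. The 10 members with the highest mean TPM held 44.5% of the members' aerial TPM and 34.6% of their root TPM.

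**Figure D2:**
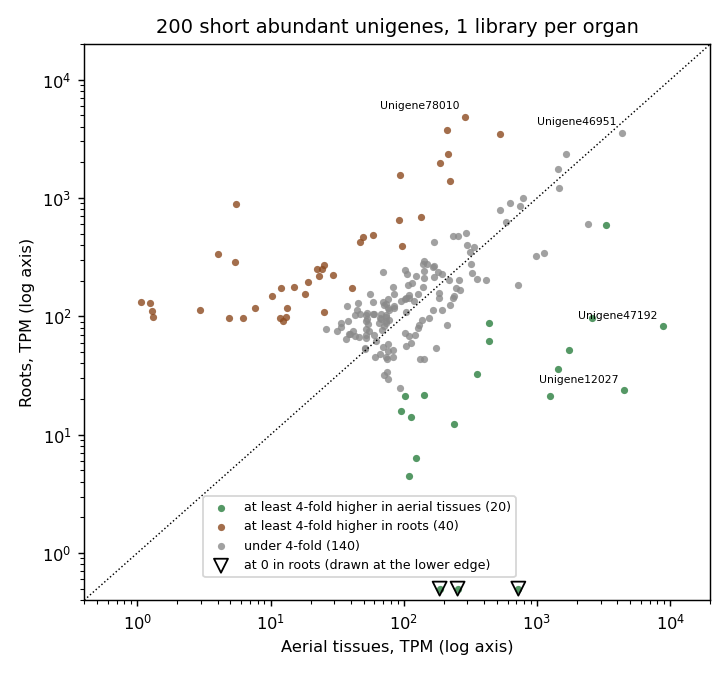
TPM in roots against TPM in aerial tissues (log axes, dotted line of equality) for the 200 short abundant unigenes, 1 point each and 1 library per organ, with colours for a difference of at least 4-fold in CPM. Of the points, 140 lie under 4-fold, 20 are higher in aerial tissues and 40 in roots, and the 3 members at 0 in roots are drawn at the lower edge.

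The member with the highest mean level was far higher in the aerial library. Unigene47192, of 224 bases, stood at 8871 TPM in aerial tissues and 83.3 TPM in roots, from 2556 and 20 counts. By TPM it ranked 3 among all aerial unigenes, and by count it ranked 216. The next, Unigene46951 of 378 bases, was high in both organs: 4308 TPM in aerial tissues and 3562 TPM in roots, from 4542 and 3133 counts. It ranked 6 by TPM in aerial tissues and 8 in roots.

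Unigene78010, of 482 bases, stood at 287 TPM in aerial tissues and 4858 TPM in roots, where it ranked 4 by TPM and 29 by count. Its 6488 root counts were the most of any member in either library, and by full length its mean level was 2159. Unigene12027, of 290 bases, stood at 4476 TPM in aerial tissues and 23.9 TPM in roots. Unigene64555, of 356 bases, stood at 1645 and 2344 TPM. The 3 others among the 8 highest were biased to 1 organ. Unigene78009, of 323 bases, had 212 TPM in aerial tissues and 3774 TPM in roots, and Unigene1325, of 230 bases, had 531 and 3437 TPM. Unigene51645, of 229 bases, had 3307 and 591 TPM. Of these 8, then, 3 lay past 4-fold on the aerial side, 3 on the root side and 2 on neither.

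For each member the CPM in roots was divided by that in aerial tissues, a ratio that does not use effective length. Counts under 3 entered as 3, and a member was called from a 4-fold ratio upwards. The members were picked on the level in these same 2 libraries, so their ratios are a description. Of the 200 members, 20 (10%) were called higher in aerial tissues and 40 (20%) higher in roots. Over all 33536 unigenes with at least 20 counts the same calls were made for 8.31% and 6.33%. In the 2538 long abundant unigenes they were made for 407 (16.04%) and 199 (7.84%). The 188 other short unigenes, with at least 50 counts but a mean under 50 TPM, gave 9.04% and 12.2%. Most calls came from members that reached 50 TPM through the organ where they were high: 29 of the 40 root-higher members did so in roots alone and 14 of the 20 aerial-higher ones in aerial tissues alone. Of the 130 members at 50 TPM or more in both organs, 6 (4.62%) were aerial-higher and 11 (8.46%) root-higher, and of the 1559 such long abundant unigenes 3.27% and 3.40%. Nothing is read from these shares, and no difference between them was tested, since no organ has a second library.

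**Figure D3:**
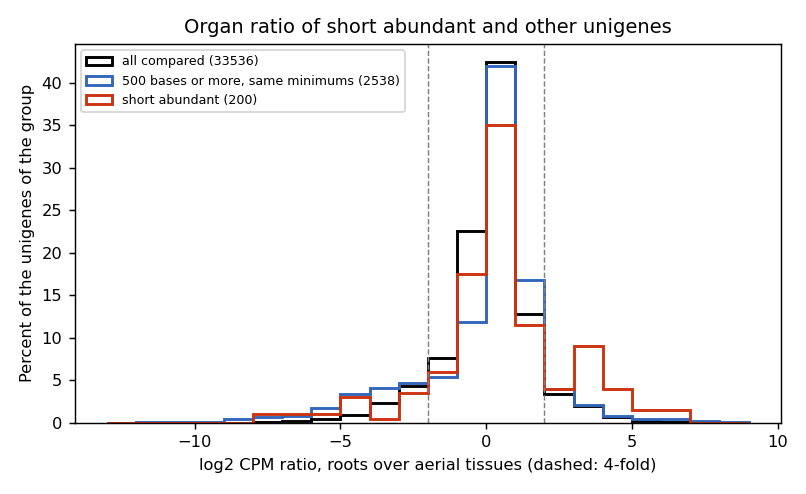
Percent of unigenes per step of 1 in the log2 CPM ratio of roots over aerial tissues, for the 200 short abundant unigenes, the 2538 unigenes of 500 bases or more with the same minimums and all 33536 compared unigenes. Beyond the dashed line at 4-fold on the root side lie 20% of the short abundant unigenes, 7.84% of the long and 6.33% of all. On the aerial side lie 10%, 16.04% and 8.31%. The short and long groups were chosen on level in these same libraries, so nothing is read from the shares.

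Scaling mattered little for these counts. Scaling to library totals left the median log2 ratio of all compared unigenes at 0.27 in favour of roots, and the members' median was 0.57. With TMM scaling, which moves all ratios by 0.27 towards aerial tissues, 23 members were aerial-higher and 37 root-higher, where all compared unigenes gave 9.82% and 5.07%. The members' median log2 ratio was then 0.30 and that of the long abundant unigenes 0.25. The middle of the members thus lay close to that of the long abundant unigenes, whose median with library totals was 0.52. The upper quartiles were further apart, at 1.35 in the members and 0.99 in the long abundant unigenes.

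Shares were also taken at similar counts, without the condition of 50 TPM in both organs. Among unigenes with 100 to under 500 counts, 18.4% of the 114 members and 11.1% of the 404 long abundant unigenes were root-higher, and 6.14% and 6.68% were aerial-higher. Among those with at least 500 counts, 23.1% of the 39 members and 7.22% of the 2134 long abundant unigenes were root-higher, and 17.9% and 17.8% were aerial-higher. Over all members, most calls came from those that reached 50 TPM through the organ where they were high. As above, nothing is therefore read from these shares. The upper class rests on 9 root-higher and 7 aerial-higher members.

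Counting error was wider in the members than in the long unigenes. The median half-width of the 95% interval was 1.41-fold in the members and 1.15-fold in the long abundant unigenes, and it was 1.76-fold in the 47 members with under 100 counts. The whole interval lay past 4-fold for 35 of the 40 root-higher members and 15 of the 20 higher in aerial tissues. A difference of at least 16-fold was found for 12 members (6%) in the aerial direction and 14 (7%) in the root direction. All compared unigenes gave 1.61% and 0.993%, and the long abundant ones 7.21% and 1.81%. Within 2-fold lay 105 members (52.5%), against 65.0% of all compared and 53.9% of the long abundant unigenes. From 2-fold to under 4-fold lay 35 members (17.5%), 23 of them on the root side, against 20.4% and 22.2%.

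The 20 aerial-higher members stood at 95.2 to 8871 TPM in aerial tissues, with a median of 394, and at 0 to 591 TPM in roots, with a median of 21.5. Their part of the members' TPM was 43.7% in aerial tissues and 1.95% in roots. A count of 0 was found in roots for 3 members. Unigene42041, of 382 bases, had 778 aerial counts, or 724 TPM. With its root count set to the floor of 3, the aerial excess was 204-fold. The near end of its 95% exact interval, which takes the root count as 0, was 165-fold. Unigene31253, of 424 bases, had 328 aerial counts, or 253 TPM, and was 86.0-fold higher at the same floor (near end 69.5). Unigene52912, of 275 bases, had 98 aerial counts, or 186 TPM, and was 25.7-fold higher at that floor (near end 20.5). All 3 are likewise listed at 0 in the series table described further on.

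Among aerial-higher members with root counts, Unigene12027 had 2695 aerial and 12 root counts, a 177-fold difference (95% exact interval 101 to 342). Unigene47192 was 100.5-fold higher in aerial tissues (64.9 to 165). Unigene75293, of 466 bases, had 2621 and 66 counts, or 1729 and 52.2 TPM, and was 31.2-fold higher (24.5 to 40.5). In all these the libraries were apart by far more than counting error.

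The 40 root-higher members stood at 91.3 to 4858 TPM in roots, with a median of 221, and at 1.06 to 531 TPM in aerial tissues, with a median of 20.6. Their part of the members' TPM was 45.5% in roots and 4.19% in aerial tissues. No member was at 0 in aerial tissues, although 7 had under 3 counts there. The sharpest biases to roots lay in members that were nearly undetected in aerial tissues. For 1 or 2 aerial counts the ratio below is that of the counts themselves. Unigene79678, of 240 bases, had 2 aerial and 265 root counts, or 5.55 and 882 TPM, a 169-fold difference (95% exact interval 46.2 to 1399). Unigene58713, of 461 bases, had 6 and 418 counts, or 4.03 and 336 TPM, an 88.6-fold difference (40.4 to 243). Unigene58714, of 484 bases, had 2 and 173 counts, a 110.0-fold difference (30.0 to 916).

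Unigene33773, of 475 bases, had 2 aerial and 146 root counts and differed 92.9-fold (25.2 to 774). Unigene49667, of 357 bases, had 1 and 105 counts and differed 134-fold (23.5 to 5325). These upper ends are wide because so few aerial reads were counted. The most abundant root-higher members were less extreme and more precise. Unigene78010 was 18.0-fold higher in roots (16.3 to 19.8), Unigene78009 was 18.9-fold higher (16.1 to 22.3) and Unigene1325 was 6.87-fold higher (5.82 to 8.15).

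**Figure D4:**
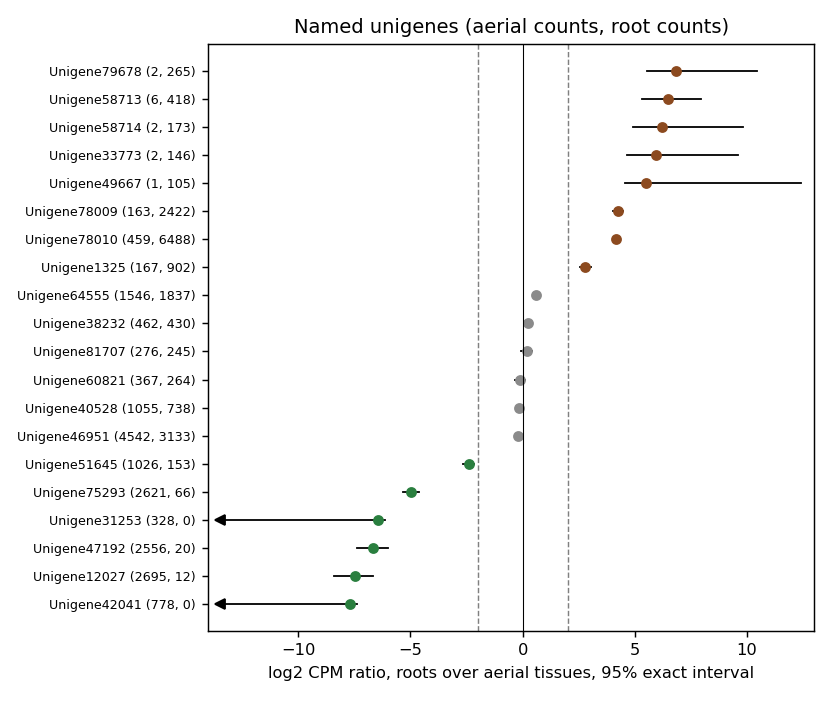
Log2 CPM ratio of roots over aerial tissues (points, counts under 3 set to 3) with 95% exact intervals of counting error for the named unigenes, with aerial and root counts in brackets; dashed lines mark 4-fold and arrows an interval with no lower end. The points run from Unigene42041, with 778 and 0 counts, to Unigene79678, with 2 and 265 counts.

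By the counts of these 2 libraries, other members stood at nearly equal levels in both organs. Among those with at least 500 counts, the ratio nearest to 1 was that of Unigene60821, of 395 bases, with 321 TPM in aerial tissues and 277 TPM in roots. Its CPM was 1.09-fold higher in aerial tissues, with an interval of 0.930 to 1.28. Unigene40528, of 314 bases, stood at 1458 and 1223 TPM and was 1.12-fold higher in aerial tissues (1.02 to 1.24). Unigene81707, of 263 bases, stood at 588 and 626 TPM, a root-to-aerial ratio of 1.13 (0.947 to 1.35). Unigene46951 was 1.14-fold higher in aerial tissues (1.09 to 1.19). Unigene38232, of 460 bases, stood at 311 and 347 TPM and was 1.18-fold higher in roots (1.04 to 1.35). The intervals of Unigene60821 and Unigene81707 include equal levels. With TMM all 5 came out higher in aerial tissues, with log2 ratios of -0.46 to -0.02, so the directions of Unigene81707 and Unigene38232 turned.

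Calls were also counted by length class. Length and TPM chose the members, so these counts are a description and no trend is read from them. Root-higher calls were made for 5 of the 24 members under 250 bases, 6 of the 41 of 250 to under 300, 18 of the 71 of 300 to under 400 and 11 of the 64 of 400 or more. Aerial-higher calls were made for 4, 6, 7 and 3 members of the same classes. In that order the root-higher shares were 20.8%, 14.6%, 25.4% and 17.2%, and the aerial-higher shares 16.7%, 14.6%, 9.86% and 4.69%. In the long abundant unigenes the aerial-higher share was 9.64% at 500 to under 750 bases and 19.8% at 1000 to under 2000, and the root-higher share was 12.7% and 6.81%. By level, the 26 members with a mean of 500 TPM or more included 7 aerial-higher (26.9%) and 7 root-higher (26.9%) ones, and 9 within 2-fold. The 90 members of 50 to under 100 TPM included 7 aerial-higher (7.78%) and 17 root-higher (18.9%) ones. All compared unigenes, at any level, gave 8.31% and 6.33%. Long abundant unigenes were not split by level, and nothing is read from these shares.

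The identifier, which the choice of members did not use, tells which contigs the members are. Identifiers starting with TR, which carry component, gene and isoform numbers, belonged to 148 members (74%), against 48.6% of all unigenes under 500 bases and 55.4% of the long abundant ones. Contigs named with Swertia and Leaf made up 35 members (17.5%), against 38.6% of the short and 32.7% of the long abundant unigenes. A further 16 members had identifiers starting with C and 1 was a scaffold. Aerial-higher and root-higher calls numbered 5 (14.3%) and 3 (8.57%) in the leaf-named members and 14 (9.46%) and 31 (20.9%) in the TR members. In the C members they numbered 1 (6.25%) and 6 (37.5%). All compared unigenes of any form gave 8.31% and 6.33%, and shares per form were not taken over them. Most calls came from members that reached 50 TPM through the organ where they were high, so nothing is read from these shares. Which assembler gave each form is not stated in the labels.

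Some members shared a TR gene number with other unigenes, here called forms of 1 gene by the identifier alone, and may not be independent of each other. The 148 TR members belonged to 139 TR genes, and 31 of them had another unigene of the same gene in the assembly, of 500 bases or more for 18. Within 6 TR genes at least 2 members were kept, 15 members in all. The expected counts are whole numbers throughout, so how reads matching several forms were assigned is unknown and the counts of all such forms are uncertain.

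Forms of 1 gene that were both members mostly had like ratios. With aerial counts under 3 set to 3, Unigene58713 and Unigene58714 differed by 0.27 in their log2 ratio, both far on the root side. Unigene47158 and Unigene47159, of 342 and 312 bases, were 4.57-fold and 7.50-fold higher in roots (log2 ratio of Unigene47158 with TMM 1.92, under 4-fold), at 109 and 654 TPM there and 25.4 and 92.5 TPM in aerial tissues. Unigene64550, Unigene64551 and Unigene64552 stood at 902, 784 and 998 TPM in roots and 622, 528 and 783 TPM in aerial tissues, and their ratios lay within 0.22 on the log2 scale. Unigene60820, Unigene60821, Unigene60823 and Unigene60825 were all under 2-fold and spanned 0.57. The 2 forms Unigene56621 and Unigene56622 stood at 129 and 83.8 TPM in aerial tissues and at 155 TPM each in roots. The widest gap was in the pair with the highest level. Unigene46951 was near balance and its form Unigene46952, of 228 bases, was 3.12-fold higher in aerial tissues (2.46 to 3.99), with 1128 and 341 TPM. The gap between the pair was 1.45 on the log2 scale.

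Longer forms of the same gene were set beside the members they belong to. For 18 members the longest form of at least 500 bases had 20 counts or more. These pairs rest on 15 distinct longer forms and are not all independent. In 17 of the 18 the organ ratios of member and longer form lay within 2-fold of each other. The 4 members of this set with a 4-fold call had longer forms called the same way. No unrelated pairs were set beside these, so how far such agreement exceeds that of any pair of unigenes is unknown. The member's mean TPM exceeded that of its longer form in 10 of the 18, with a median ratio of 1.32.

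Matching by the TR number, which groups several TR genes, gave looser agreement. By it 52 members had a long partner of 20 counts or more. These pairs include some forms of 1 TR gene already counted above, so they are not a separate set. The ratios lay within 2-fold in 37 and were at least 4-fold apart in 8. Of the 13 members here with a 4-fold call, 9 had a partner called the same way and 0 the other way. Several members share a partner, and the 52 pairs rest on 31 distinct partners, so they are not independent. The following examples were picked after their values were seen. Unigene54032, of 267 bases, shares its TR number with Unigene54033, the unigene of highest TPM in roots, and both were root-higher, at log2 ratios of 2.75 and 2.55. Unigene62757 and Unigene62761, of 253 and 357 bases, share theirs with Unigene62758, the unigene of highest TPM in aerial tissues. Those members had log2 ratios of -0.61 and -0.58, at 240 and 109 TPM in aerial tissues, whereas Unigene62758 was at -4.50. Unigene58713 and Unigene58714 had a partner of 1520 bases, Unigene58715, that stood at 8.05 TPM in aerial tissues and 7.44 TPM in roots, near balance. Unigene78009 and Unigene78010 share a TR number as separate genes, and their log2 ratios were 4.24 and 4.17. The largest such family held 8 members, with log2 ratios of 0.29 to 1.78.

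A second set of root FPKM values (reads scaled to transcript length and depth), deposited in a table for the whole series, was not used in choosing the members. By its name the column belongs to the root library, so it is another quantification of the same organ and not a replicate. Of the 150 members with at least 50 root counts, 35 were at least 1.5-fold lower in the table than in the root file and 12 at least 1.5-fold higher, after division by the median ratio of 1.02. That is 23.3% and 8%, against 19.9% and 10.1% of all 14857 unigenes with at least 50 root counts. In the long abundant unigenes 14.3% were lower and 7.71% higher. The members' shares were thus near those of all unigenes.

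The table's root levels were also set beside the calls, although a high root TPM helped to make a member root-higher. The 40 root-higher members had a median of 167 FPKM in the table against 232 FPKM in the root file. In all, 32 of them were at 50 FPKM or more in the table and 4 were at 0. The 140 members under 4-fold had medians of 106 and 120.4 FPKM. The 20 aerial-higher members had medians of 21.5 and 22.5 FPKM, and 5 of them reached 50 FPKM in the table. A value of 0 in the table was found for 16 members, of which 3 were also at 0 in the root file and 8 had at least 50 root counts. Those 8 were 5.33% of the members with at least 50 root counts. The share was 6.19% in all unigenes with such counts and 5.31% in the long abundant ones. Of the 16, Unigene3252 had the most root counts, 107, or 162 FPKM in the file. Unigene46952, at 358 FPKM in the root file, and Unigene47192, at 87.3 FPKM, were also listed at 0 in the table.

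Single members differed widely between the sources. Among members above 0 in both, Unigene54032 was the furthest lower in the table, at 44.0 FPKM against 1467 FPKM in the file. Unigene39950 stood at 3.16 against 81.4 FPKM and Unigene66744 at 3.82 against 87.4 FPKM. In the other direction, Unigene78705 stood at 4356 FPKM in the table against 1636 FPKM, Unigene80274 at 744 against 338 FPKM and Unigene71523 at 100.3 against 45.8 FPKM. The leading root-higher member, Unigene78010, stood at 6732 FPKM in the table against 5093 FPKM in the file, while its relative Unigene78009 stood at 836.5 against 3957 FPKM. Also among the 8 highest, Unigene64555 stood at 460 against 2457 FPKM and Unigene51645 at 231 against 620 FPKM. Unigene1325 stood at 4118 against 3604 FPKM and Unigene12027 at 37.7 against 25.05 FPKM. For Unigene46951 the root values were alike in both sources, 3698 and 3735 FPKM. Of the other members named as near balance, Unigene60821 stood at 142 FPKM in the table against 290 FPKM and Unigene40528 at 2236 against 1282 FPKM. Unigene81707 stood at 767 against 657 FPKM and Unigene38232 at 383 against 364 FPKM. Aerial values were not compared with a second source, so the near-balance of these members was not checked as a whole.

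**Figure D5:**
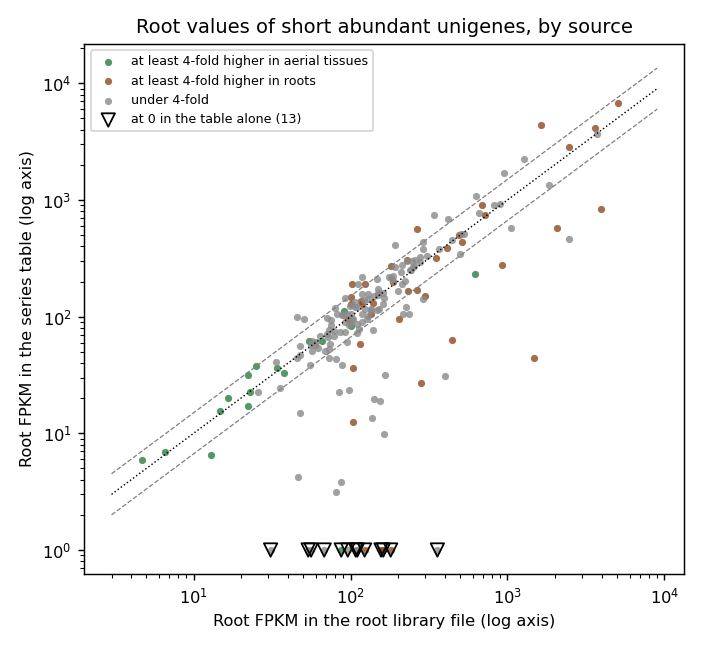
Root FPKM in the series table against root FPKM in the root library file (log axes) for the short abundant unigenes above 0 in the file, coloured by organ call, with a dotted line of equality and dashed lines at 1.5-fold. Points below the dashed lines outnumber those above, and the 13 members at 0 in the table alone are drawn as triangles at the lower edge.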

How the data were processed

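The files hold 1 library each of aerial tissues and roots. The submitters' processing notes name Trimmomatic and RSEM but give no versions. Assembler, aligner and settings are unknown here. The deposited expected counts are raw whole numbers that sum to 5351257 (aerial tissues) and 4207068 (roots). Per the file headers, RSEM scaled the deposited TPM and FPKM values to effective length and depth. Nothing states how the authors made the FPKM values of the series table. Its 1 other column of values is named for leaf, which no label says, and was not used.

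From these, CPM ratios of roots over aerial tissues were computed with a floor of 3 counts, and 95% Clopper-Pearson intervals from the division of reads between the libraries. With 1 library per organ, these cover counting error alone. The reads carry no molecular identifiers, so copies of the same fragment could not be told apart by them. TMM (edgeR 4.0.16) and DESeq2 1.42.0 size factors were alternatives. Calls were tested on simulated data. Named unigenes are the 8 highest by mean TPM, in each direction the 5 whose interval ends furthest from 1 on its inner side, the 5 nearest balance with at least 500 counts, the 3 shortest, those at the thresholds or at 0, the 3 per direction furthest from the series table, and forms of 1 TR gene. The members and these rules were chosen with earlier results of these data known. Python 3.11.15 and R 4.3.3 were used.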

Additional observations from a re-analysis of the deposited data

How the results depend on the processing

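Of 42 alternatives, 24 kept the value to at most 1.5 times away (counts) or inside a binomial interval (shares and the median), and 18 moved it further. For the shares that interval treats TPM as if it were read counts, so it is a yardstick and not their counting error. Root-higher calls outnumbered aerial-higher ones at each setting, and the median stayed on the root side. The members' share was slightly larger in aerial tissues by TPM, but larger in roots by expected counts and by full length. Single members near balance turned with TMM. Among the members with at least 50 TPM in both libraries, a setting chosen after seeing the data, 6 were aerial-higher and 11 root-higher. The 200 members became 321 with a mean of at least 25 TPM, 110 with at least 100 TPM, 311 under 600 bases, 130 by counts per full length, 130 with at least 50 TPM in both libraries and 39 with at least 500 counts. These settings change the definition, so the numbers move by construction. A fold of 2 gave 32 aerial-higher and 63 root-higher members, and a fold of 8 gave 13 aerial-higher ones. The members' median log2 ratio was 0.30 with TMM and 0.30 with DESeq2 size factors. Their share of expected counts was 0.875% in aerial tissues and 1.14% in roots, and by full length 3.37% and 3.81%. Members with under 3 aerial counts numbered 7, against 0 at a count of 0. No library could be left out. No paired analysis was possible because each organ had 1 library. Depth limits the members with under 100 counts most, and a count of 0 allows up to 0.561 CPM in aerial tissues and 0.713 CPM in roots.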
